A study of Mus musculus with 9 samples.

Results

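The genes described here are 41 sarcomere scaffold genes, whose proteins build the Z-disc, the M-band and the thin filament of striated muscle. They were listed by name, as genes for sarcomere proteins other than myosins and troponins, with earlier results of these data known. All 41 were present in both deposited tables, out of 14971 protein-coding genes listed in either table. RNA was sequenced from the tibialis anterior of male C57BL/6J mice, a shin muscle made up largely of fast fibres. Control mice were compared with orchiectomised mice (ORX, testes removed) and with orchiectomised mice treated with dihydrotestosterone (ORX+DHT), a potent androgen. There were 3 libraries per group, 9 in all, sampled 4 weeks after treatment. No ages and no dose are given in the labels, and no transgene is involved. The labels number the libraries as biological replicates and say no more about the animals, so p-values measure the spread between these libraries.

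A sarcomere is the contractile unit between neighbouring Z-discs. Alpha-actinins cross-link the actin thin filaments at the Z-disc, and titin spans from there to the M-band, where myomesins tie the thick filaments together. Nebulin, leiomodins and tropomodulins set the length and the ends of the thin filament, while LIM and ankyrin-repeat proteins of the Z-disc and I-band respond to load. Androgens maintain muscle mass in males through the androgen receptor, a hormone-activated transcription factor.

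Library depth was 1340209 to 1682235 reads over the listed genes, and the values are normalised counts (reads divided by a scaling factor of each library), set on 1 scale for all 9 libraries. As a check of the labelled tissue, the 9 fast fibre markers summed to 211125 to 272665 normalised counts in a library and the 9 slow fibre markers to 292 to 485. Control replicate 1 stood apart: its log2 deviation from the other controls fell with exonic length, with a Pearson's r of -0.68 across the 41 genes and -0.58 across 8631 genes, which are not independent replicates. The 3 deviations of a gene sum to 0, so the upward slopes of controls 2 and 3 are not separate evidence. The median absolute deviation of the 41 genes was 0.52 (log2) for control 1 and 0.25 for each of the other 2 controls, and it was 0.08 to 0.16 among the ORX and ORX+DHT libraries. Control 1 was high in short genes such as Ankrd2, Csrp3 and Tcap and low in long genes such as Ttn, Neb and Cmya5. Log2 fold changes against control are therefore also given without this library for the genes named in those comparisons.

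**Figure D1:**
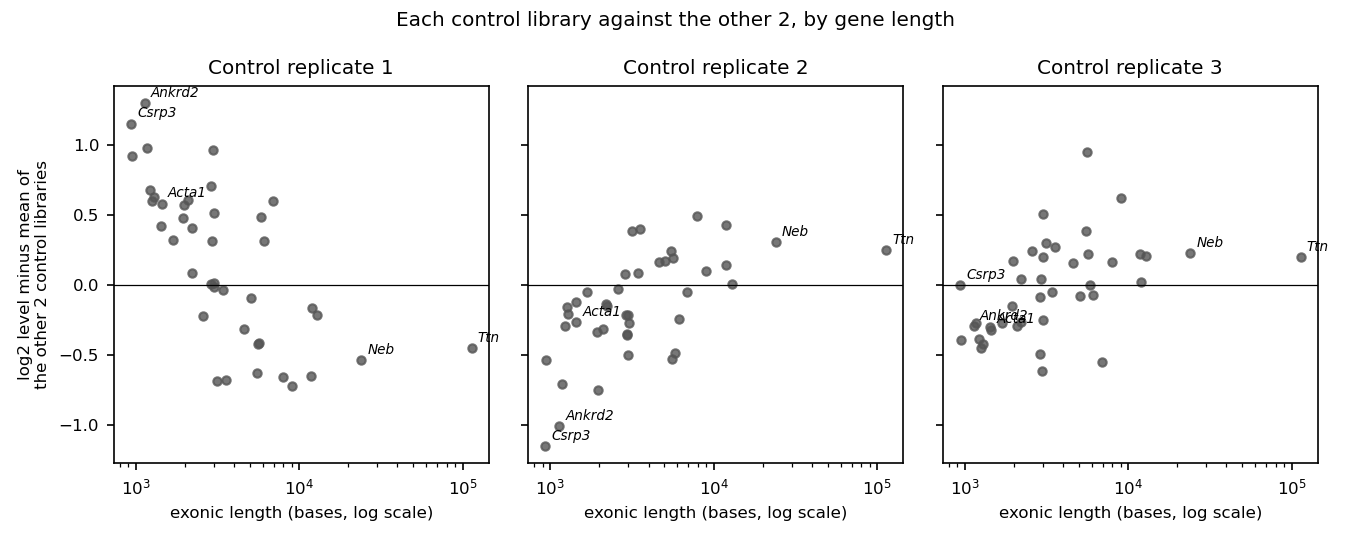
Deviation of each control library from the mean of the other control libraries (log2, y axis) against exonic length in bases (x axis, log scale), 1 point per gene for the 41 genes. The points of control 1 slope downward (r = -0.68) and spread further from 0 than those of controls 2 and 3, whose upward slopes follow from the deviations of a gene summing to 0.

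Most of the 41 genes are among the most highly expressed in this muscle, with a median rank at the 98.5th percentile of the genes in both tables. The lowest rank was at percentile 75.1 (Myom3). These ranks are of normalised counts without a correction for length, which places long genes higher. Levels per 1000 bases of exon allow genes to be set side by side, and on that scale the control means ran from 11.8 for Myom3 to 45063 for Acta1, the skeletal alpha-actin of the thin filament. Actn3, the alpha-actinin of fast fibres, followed at 5435, and Tcap, the titin cap protein, at 3916 normalised counts per 1000 bases. The means of Tcap and Acta1 rested in part on control 1. Tcap was at 5721 there, above Actn3 at 5452, and at 3013 as the mean of the other 2 controls. Acta1 was at 57882 in control 1 and at 38654 as the mean of the other 2, while Actn3 was at 5427 in those. Within families, 1 form was often far above its relatives on the same scale. Actn3 stood above Actn2 (1032), Myoz1 (2743) above Myoz3 (144) and Myoz2 (134), and Tmod4 (531) above Tmod1 (94.1). Myom2 (748) and Myom1 (594), the M-band myomesins, were far above Myom3 (11.8), and Xirp2 (352) was above Xirp1 (63.0), both Xin actin-binding repeat genes. Among the PDZ-LIM genes, Ldb3 (589) was above Pdlim3 (365), Pdlim7 (154) and Pdlim5 (98.3), and of the leiomodins Lmod3 (181) was above Lmod2 (121). These orders within families held in each of the 3 control libraries, except that Myoz2 (199) was above Myoz3 (141) in control 1.

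Many of these genes were higher in orchiectomised muscle that received DHT. Of the 41 genes, 16 were called higher in ORX+DHT than in ORX by limma (adjusted p under 0.05 over all genes tested) and 0 were called lower. Of all 8770 genes tested, 2.38% were called higher and 1.7% lower, and 4.08% in either direction. Highly expressed genes are called more often: among 359 genes with a mean of at least 500 normalised counts, 15.6% were called higher, and 11 of the 25 scaffold genes at that level were. Fold changes were above 0 for 33 of the 41 genes against 50.8% of all genes (and below 0 for 8, against 49.2%), with a median log2 fold change of 0.22 against 0.0062. The calls depended on the setting. In place of limma, edgeR called 15 of the 41 and DESeq2 called 11, all of them higher. DESeq2 did not call Flnc (adjusted p 0.405 by DESeq2), Myot, Des, Ankrd2 or Trim54. With all 9 libraries in 1 limma fit, 3 of the 41 were called (Pdlim5, Fhl1 and Fhl3), while the fold changes stayed within 0.01 of those given. After quantile normalisation 7 of the 41 were called higher and 2 lower (Cmya5 and Actn3), and the median was 0.11. The groups did not overlap for 17 genes that were higher and 2 that were lower, where 10.4% and 9.13% of all genes did so.

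**Figure D2:**
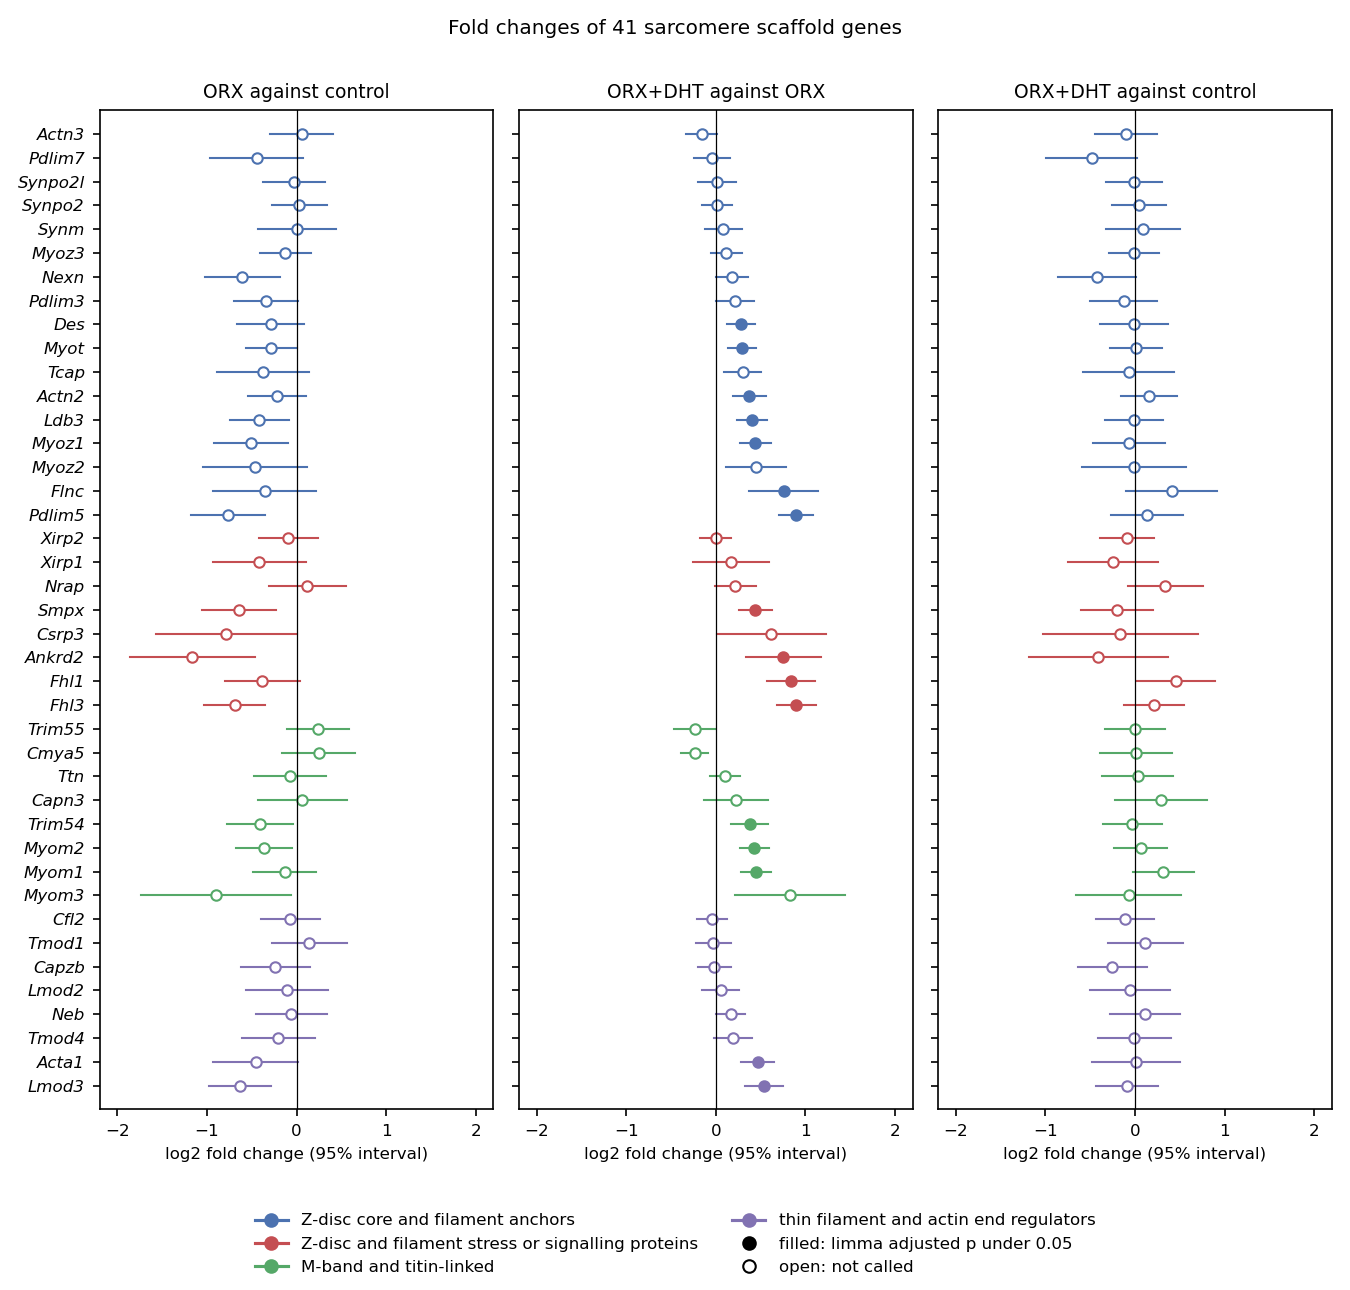
Log2 fold change of the 41 genes in each of the 3 comparisons (x axis, with bars for the 95% confidence interval of limma), ordered by role. Filled points mark genes called at an adjusted p under 0.05: 16 in ORX+DHT against ORX, all higher, and 0 in the other comparisons.

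Promoters were searched for 6 motifs of factors known from muscle or androgen biology, and the binding or activity of these factors was not measured. RefSeq promoter windows (GRCm38.p6, 250 bases before to 50 after a start) were found for 30 of the 41 genes (37 windows), of which 12 were called higher in ORX+DHT and 18 were not. The CArG box, the motif of serum response factor, was found in the windows of 4 genes, searched on both strands: Acta1, Fhl1, Ldb3 and Myom1. All 4 were called higher, and the other 8 called genes with a window did not hold it. Of the 37 windows 5 held the box, against 1.63% of all 32851 windows, and it was found for 1.81% of all genes with a window. The windows of Ldb3 with the box overlap and hold the same box, which is thus counted in each of them. The sequences of the 4 genes are shown because every gene with the box was a called gene. The 250 bases before the start are given 5′ to 3′ on the gene's strand, with the CArG box in capitals. The sequence of Acta1 is chr8:123894776-123895025 (minus strand, box 73 bases before the start), that of Fhl1 chrX:56779433-56779682 (plus strand, 102 bases), that of Ldb3 chr14:34588682-34588931 (minus strand, 35 bases) and that of Myom1 chr17:71019307-71019556 (plus strand, 99 bases). The starts used for Fhl1 and Myom1 lie inside the annotated span of the gene.
Acta1: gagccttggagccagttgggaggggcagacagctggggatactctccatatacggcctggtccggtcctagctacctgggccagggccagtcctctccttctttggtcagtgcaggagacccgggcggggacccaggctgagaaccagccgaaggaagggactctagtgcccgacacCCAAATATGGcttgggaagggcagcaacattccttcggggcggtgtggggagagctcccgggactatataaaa
Fhl1: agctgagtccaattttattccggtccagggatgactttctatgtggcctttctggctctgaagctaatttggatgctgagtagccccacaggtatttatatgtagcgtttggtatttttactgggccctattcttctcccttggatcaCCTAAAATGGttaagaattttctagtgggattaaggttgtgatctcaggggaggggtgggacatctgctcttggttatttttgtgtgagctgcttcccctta
Ldb3: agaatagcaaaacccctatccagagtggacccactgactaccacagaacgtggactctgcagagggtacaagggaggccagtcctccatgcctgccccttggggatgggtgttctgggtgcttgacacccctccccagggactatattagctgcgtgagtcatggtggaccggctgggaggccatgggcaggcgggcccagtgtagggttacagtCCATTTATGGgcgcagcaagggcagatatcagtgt
Myom1: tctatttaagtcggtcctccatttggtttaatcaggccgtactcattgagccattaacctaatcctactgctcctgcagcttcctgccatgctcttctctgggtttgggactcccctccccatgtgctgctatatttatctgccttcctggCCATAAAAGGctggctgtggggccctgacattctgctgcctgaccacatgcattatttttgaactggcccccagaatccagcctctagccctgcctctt

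The site of MEF2, a family of muscle transcription factors, was found in the windows of 7 other genes, none of which was called (0 of 7): Capn3, Myom3, Myoz2, Synpo2, Synpo2l, Ttn and Xirp2. Of the 37 windows 8 held it, against 3.19% of all windows, and it was found for 3.7% of all genes. These 2 motifs had the most uneven split by call of the 6 searched and were picked for display after that split was seen. The split is one of calls and not of fold changes. In ORX+DHT against ORX, log2 fold changes of the 7 genes ran from -0.0017 (Xirp2) to 0.83 (Myom3, SE 0.29), with Myoz2 at 0.45 (SE 0.16). Those of the 4 genes with the CArG box ran from 0.40 (Ldb3) to 0.84 (Fhl1). Of these 4, only Fhl1 was called with all 9 libraries in 1 fit. For 4 of the 7 genes, 50 bases around the match to the MEF2 site are given, with the match in capitals. The sequence of Ttn is chr2:76982684-76982733 (minus strand, match 166 bases before the start) and that of Xirp2 chr2:67445908-67445957 (plus strand, 74 bases). That of Myoz2 is chr3:123034991-123035040 (minus strand, 33 bases) and that of Myom3 chr4:135759660-135759709 (plus strand, 35 bases).
Ttn: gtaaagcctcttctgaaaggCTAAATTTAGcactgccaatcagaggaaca
Xirp2: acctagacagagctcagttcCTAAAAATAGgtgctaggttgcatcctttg
Myoz2: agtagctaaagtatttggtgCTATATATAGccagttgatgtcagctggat
Myom3: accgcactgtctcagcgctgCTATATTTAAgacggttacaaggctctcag

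The palindromic androgen response element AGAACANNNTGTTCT was found for 0 of the 30 genes and for 0.0111% of all genes with a window. Its shorter part AGAACA, counted on both strands and so within the full element too, was found for 7 of the 30, 2 of them called. Of all genes with a window, 21.3% held it. The MCAT element GGAATG was found for 6 of the 30 genes, 3 of them called, and for 16.6% of all genes. The E-box CANNTG, the motif of myogenic helix-loop-helix factors, was found for 24 of the 30 genes, 8 of them called and 16 not. Of all genes with a window, 75% held an E-box. These matches describe the letters of short windows. Srf itself, the gene of serum response factor, had a log2 fold change of 0.24 in ORX+DHT against ORX (adjusted p 0.36 by limma) and was not called.

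Among the Z-disc core and filament anchors, 7 of 17 genes were called higher in ORX+DHT than in ORX and 0 lower. Pdlim5 (ENSMUSG00000028273, chr3:142239590-142395696, minus strand, GRCm38) encodes a PDZ-LIM protein that binds alpha-actinin and protein kinases. It stood at 359, 386 and 426 normalised counts in the ORX libraries, at 752, 743 and 683 in ORX+DHT and at 877, 647 and 514 in control. The ORX+DHT libraries all lay above the ORX libraries, and the log2 fold change was 0.90 (SE 0.09, adjusted p 3.2e-06 by limma). Flnc, the muscle filamin that cross-links actin at the Z-disc, stood at 1694, 1770 and 953 in ORX and at 2803, 2702 and 1836 in ORX+DHT. Its log2 fold change was 0.76 (SE 0.18, adjusted p 0.022 by limma), with ORX replicate 3 and ORX+DHT replicate 3 the lowest of their groups. Myoz1, calsarcin-2 of fast fibres, stood at 2239, 2429 and 2649 in ORX and at 3172, 3222 and 3532 in ORX+DHT, without overlap (log2 fold change 0.44, SE 0.08, adjusted p 0.00267 by limma). Ldb3, the PDZ-LIM protein also called ZASP or cypher, stood at 2810, 2745 and 2506 in ORX and at 3762, 3534 and 3367 in ORX+DHT. Those groups were separate too (log2 fold change 0.40, SE 0.08, adjusted p 0.00386 by limma). After quantile normalisation the call was lost for Ldb3 (0.09, adjusted p 0.58 by limma), Myoz1 (0.18, adjusted p 0.282) and Flnc (0.62, adjusted p 0.0838).

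Smaller rises were found for 3 further Z-disc genes. Actn2, the alpha-actinin shared by all fibre types and the heart, stood at 2887, 2709 and 2425 in ORX and at 3821, 3398 and 3178 in ORX+DHT (log2 fold change 0.37, SE 0.09, adjusted p 0.0175 by limma). Myot, which encodes the actin-bundling protein myotilin, stood at 1953, 1973 and 2043 in ORX and at 2537, 2282 and 2498 in ORX+DHT (0.29, SE 0.07, adjusted p 0.0312 by limma). Des, the intermediate filament desmin that links neighbouring Z-discs, stood at 4504, 4601 and 4727 in ORX and at 5881, 5298 and 5591 in ORX+DHT (0.28, SE 0.07, adjusted p 0.0415 by limma). In each of the 3 the groups did not overlap. After quantile normalisation the log2 fold changes were 0.09 for Actn2, 0.22 for Myot and 0.09 for Des, none of them called (adjusted p 0.676, 0.0789 and 0.531 by limma). Their calls also rested on single libraries: for Actn2 the adjusted p was 0.0706, 0.0641, 0.131 and 0.0547 without ORX 2, ORX 3, ORX+DHT 1 and ORX+DHT 2. For Myot it was 0.0523, 0.143, 0.156 and 0.124 without ORX 1, ORX 2, ORX+DHT 1 and ORX+DHT 3. For Des only the fit without ORX 3 kept the call (adjusted p 0.0476 by limma), and the others gave 0.0591 to 0.198. Flnc was lost without ORX+DHT 1 (adjusted p 0.147) or ORX+DHT 2 (0.116).

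The other 10 Z-disc core genes did not pass the test. Actn3 stood at 15256, 16261 and 17521 in ORX and at 13785, 14860 and 15272 in ORX+DHT, with overlapping groups (log2 fold change -0.16, SE 0.08, adjusted p 0.408 by limma). Myoz2, calsarcin-1 of slow fibres and heart, had a log2 fold change of 0.45 (SE 0.16, adjusted p 0.157 by limma) with ORX libraries at 94.3 to 136 normalised counts and ORX+DHT libraries at 124 to 184. Tcap had one of 0.30 (SE 0.10, adjusted p 0.112 by limma). Pdlim3 (0.22), Nexn (0.18), Myoz3 (0.12), Synm (0.08), Synpo2 (0.01), Synpo2l (0.0096) and Pdlim7 (-0.04) had smaller log2 fold changes. The 95% confidence intervals of Synpo2 (-0.15 to 0.18) and Pdlim7 (-0.24 to 0.16) do not reach the value of Pdlim5. Genes of 1 family thus gave different values: among the PDZ-LIM genes, Pdlim5 had a log2 fold change of 0.90 and Pdlim7 one of -0.04, a difference that was not itself tested.

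Among the Z-disc and filament stress or signalling genes, 4 of 8 were called higher and 0 lower. Fhl3 (ENSMUSG00000032643, chr4:124700701-124708611, plus strand, GRCm38), a four-and-a-half-LIM protein, stood at 201, 173 and 197 normalised counts in ORX, at 344, 329 and 396 in ORX+DHT and at 356, 300 and 270 in control. Its log2 fold change of 0.90 (SE 0.10, adjusted p 1.83e-05 by limma) was the largest of the 41 genes. Fhl1 (ENSMUSG00000023092, chrX:56731787-56793346, plus strand), the LIM protein most abundant in skeletal muscle and mutated in several myopathies, stood at 2625, 2221 and 1873 in ORX. In ORX+DHT it stood at 4855, 3258 and 3940, and in control at 2874, 2292 and 3659. The ORX and ORX+DHT groups did not overlap (log2 fold change 0.84, SE 0.13, adjusted p 0.000453 by limma). Smpx, a small muscle protein of the costamere encoded on the X chromosome, stood at 271, 264 and 253 in ORX and at 351, 371 and 349 in ORX+DHT (0.44, SE 0.09, adjusted p 0.00566 by limma). Ankrd2, a stretch-responsive ankyrin-repeat protein of the I-band, stood at 149, 132 and 100 in ORX and at 299, 225 and 142 in ORX+DHT. These groups overlapped, as ORX+DHT replicate 3 lay below ORX replicate 1, and the log2 fold change was 0.76 (SE 0.20, adjusted p 0.0387 by limma). The call of Ankrd2 was lost without ORX 2, ORX 3, ORX+DHT 1 or ORX+DHT 2 (adjusted p 0.0857, 0.125, 0.248 and 0.143) and after quantile normalisation (0.0676). Of the remaining genes, Csrp3, the muscle LIM protein, had a log2 fold change of 0.62 (SE 0.29, adjusted p 0.338 by limma) with ORX libraries from 44.7 to 96.2 and ORX+DHT libraries from 68.2 to 189. Nrap (0.22), Xirp1 (0.17) and Xirp2 (-0.0017) were not called either.

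Among the M-band and titin-linked genes, 3 of 8 were called higher and 0 lower. Myom1 (ENSMUSG00000024049, chr17:71002633-71126856, plus strand) and Myom2 (ENSMUSG00000031461, chr8:15057653-15133541, plus strand) encode the main M-band cross-linkers. Myom1 stood at 3263, 3119 and 2786 in ORX and at 4334, 3946 and 4195 in ORX+DHT (log2 fold change 0.45, SE 0.08, adjusted p 0.00221 by limma). Myom2 stood at 3205, 2889 and 2735 in ORX and at 4099, 3846 and 3945 in ORX+DHT (0.43, SE 0.08, adjusted p 0.0025 by limma). Neither pair of groups overlapped. After quantile normalisation Myom1 was at 0.23 and kept its call (adjusted p 0.0374 by limma), while Myom2 was at 0.17 and lost it (adjusted p 0.126). Trim54, a muscle RING-finger protein that associates with microtubules, stood at 290, 357 and 366 in ORX and at 443, 426 and 443 in ORX+DHT (0.38, SE 0.10, adjusted p 0.0343 by limma). Of its exonic bases, 26.6% overlap exons on the opposite strand, and whether counting used the strand is not given in the sources used here. The call of Trim54 was kept in 1 of 6 leave-one-out fits, that without ORX 3 (adjusted p 0.0155), the others gave 0.0573 to 0.134, and after quantile normalisation it was 0.0827.

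The other 5 M-band and titin-linked genes were not called. Titin itself (Ttn) stood at 17218, 15073 and 15220 in ORX and at 17143, 17249 and 16549 in ORX+DHT, with overlap (log2 fold change 0.10, SE 0.08, adjusted p 0.633 by limma). Cmya5, or myospryn, a large desmin- and titin-binding protein, stood at 3786, 3614 and 3585 in ORX and at 3211, 3082 and 3054 in ORX+DHT. Its groups did not overlap, in the direction opposite to the called genes, but the log2 fold change of -0.23 did not pass the test (SE 0.07, adjusted p 0.0873 by limma). It passed after quantile normalisation (-0.47, adjusted p 8.54e-05 by limma), and 21.7% of its exonic bases overlap the opposite strand. Trim55 stood at 133, 154 and 151 in ORX and at 123, 123 and 125 in ORX+DHT, again without overlap (-0.24, SE 0.11, adjusted p 0.34 by limma). Myom3, the myomesin of intermediate fibres, was low and scattered, at 60.9, 18.8 and 31.4 in ORX and 54.7, 74.4 and 51.4 in ORX+DHT (0.83, SE 0.29, adjusted p 0.155 by limma). Capn3, the titin-bound protease calpain 3, had a log2 fold change of 0.22 (adjusted p 0.617 by limma).

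Among the thin filament genes and actin end regulators, 2 of 8 were called higher and 0 lower. Acta1 (ENSMUSG00000031972, chr8:123891769-123894751, minus strand) stood at 46684, 46910 and 46190 normalised counts in ORX and at 59434, 65455 and 68735 in ORX+DHT. Its groups did not overlap, and the log2 fold change was 0.47 (SE 0.09, adjusted p 0.00357 by limma). Without ORX replicate 2 its adjusted p was 0.0524, with all 9 libraries in 1 fit it was 0.418, and after quantile normalisation the log2 fold change was 0.28 (adjusted p 0.000618). Lmod3, a leiomodin that nucleates actin and whose loss causes nemaline myopathy, stood at 272, 260 and 239 in ORX and at 404, 387 and 331 in ORX+DHT (0.54, SE 0.10, adjusted p 0.00301 by limma). Nebulin (Neb), the ruler of the thin filament, was higher in every ORX+DHT library than in any ORX library but was not called (0.16, SE 0.08, adjusted p 0.341 by limma). Tmod4 (0.19), Lmod2 (0.05), Capzb (-0.02), Tmod1 (-0.03) and Cfl2 (-0.04), which cap, nucleate or sever actin, were not called. Of 18 alternative settings, Pdlim5, Fhl1 and Fhl3 were called in all, and 9 of the 16 genes were called in every fit that left out 1 library. Those 9 were Pdlim5, Fhl1, Fhl3, Myoz1, Ldb3, Smpx, Lmod3, Myom1 and Myom2. Of these, Myoz1, Ldb3 and Myom2 were not called after quantile normalisation, and all but Pdlim5, Fhl1 and Fhl3 were lost with all 9 libraries in 1 fit.

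**Figure D3:**
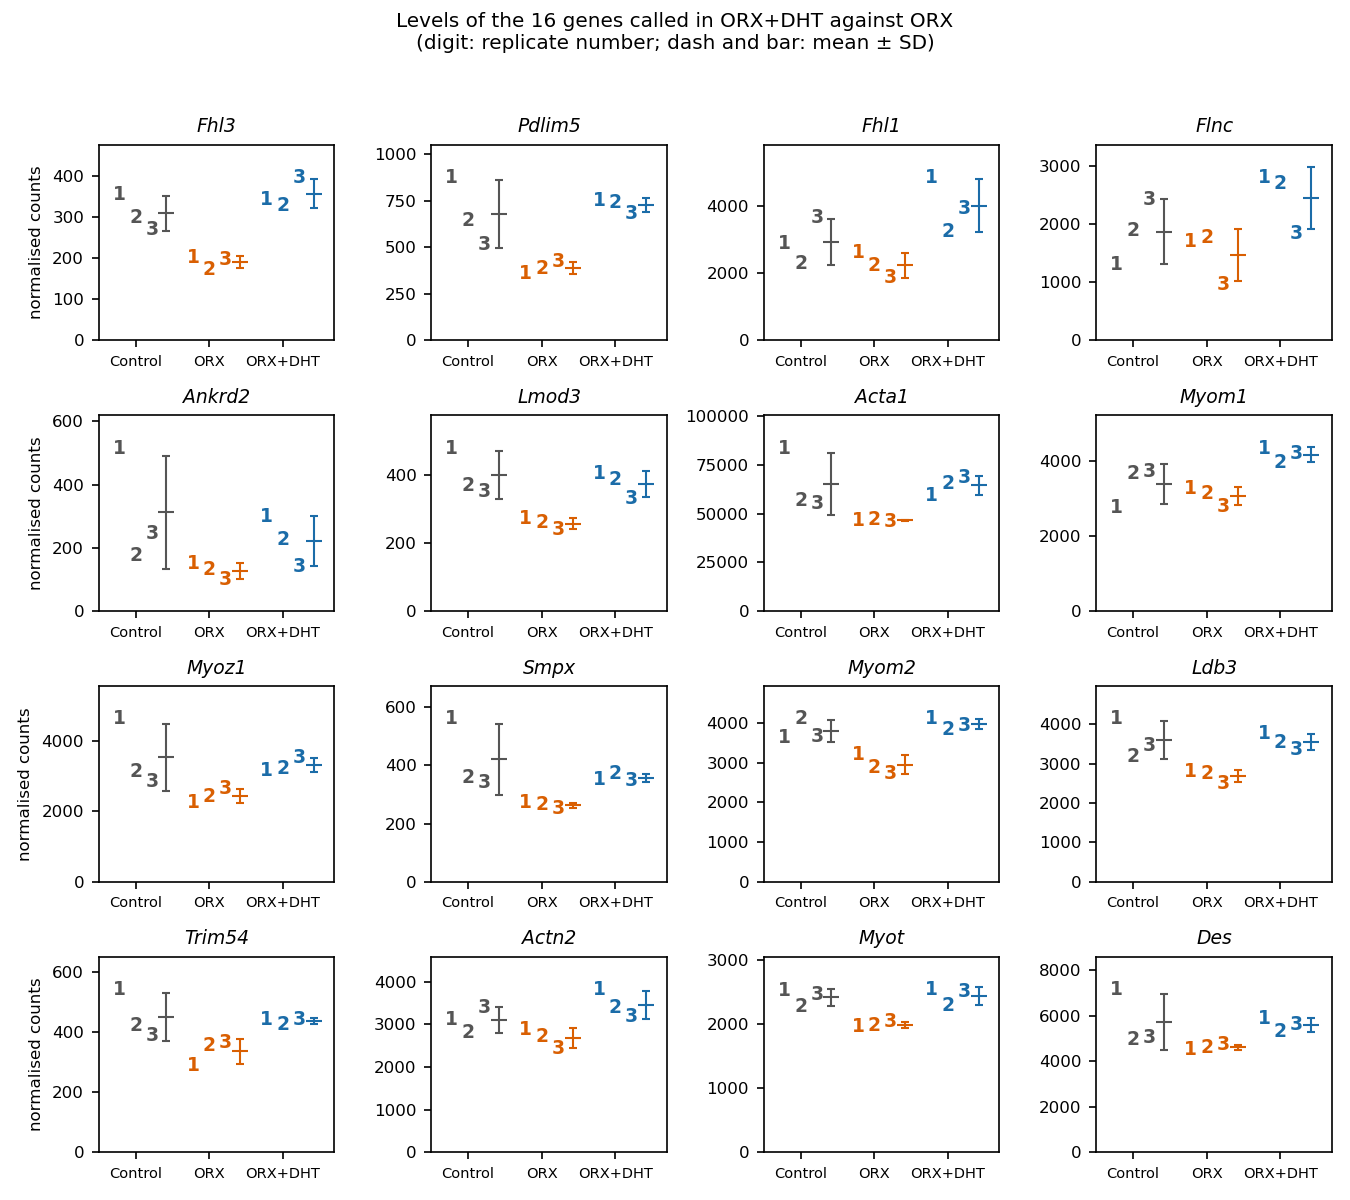
Normalised counts (y axis) of the 16 genes that passed in ORX+DHT against ORX, 1 panel per gene, with 1 point per library and a bar for the group mean (n = 3 per group). In 15 of the panels every ORX+DHT point lies above every ORX point, Ankrd2 being the exception.

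Most of these genes had lower values after orchiectomy, but 0 of 41 passed the test. Of 8631 genes tested, 0.0579% were called by limma in ORX against control, 0.0116% higher and 0.0463% lower. At an unadjusted p under 0.05 there were 11 of the 41 genes, against 7.21% of all genes, and edgeR called 0 of the 41 while DESeq2 called 1 (Ankrd2, log2 fold change -1.29, adjusted p 0.0178). Fold changes were below 0 for 33 of the 41 genes against 51.1% of all genes, and above 0 for 8 against 48.9%, with a median of -0.29 against -0.0077. After quantile normalisation 26 of the 41 were below 0, with a median of -0.11. The groups did not overlap for 15 genes that were lower in ORX and 0 that were higher, where 8.06% and 6.28% of all genes did so.

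The lowest log2 fold changes from control to ORX were those of Ankrd2, Myom3 and Csrp3, none of them called, and their order rested on control 1. Ankrd2 stood at 516, 177 and 246 normalised counts in control and at 149, 132 and 100 in ORX (log2 fold change -1.16, SE 0.32, adjusted p 0.42 by limma). Control 1 was the highest of these libraries, and without it the value was -0.73 (adjusted p 0.0832 by limma). Myom3 stood at 51.2, 48.6 and 97.3 in control (-0.90, SE 0.38, adjusted p 0.676 by limma), and Csrp3 at 207, 70.8 and 121 (-0.79, SE 0.36, adjusted p 0.69 by limma). Both overlapped ORX. Without control 1 Myom3 was the lowest of the 41 at -1.04, and Csrp3 was at -0.40 (adjusted p 0.304 and 0.655 by limma). Pdlim5, Fhl3 and Lmod3 were lower in every ORX library than in any control, with log2 fold changes of -0.77 (SE 0.19), -0.69 (SE 0.16) and -0.63 (SE 0.16) and adjusted p by limma of 0.326, 0.265 and 0.333. Without control 1, Pdlim5 (-0.56, adjusted p 0.0425 by limma) and Fhl3 (-0.58, adjusted p 0.039 by limma) were called lower, 2 of the 41 genes, and Lmod3 was not (-0.49, adjusted p 0.0566). In that fit 36 of the 41 were below 0, with a median of -0.21. The highest log2 fold changes were those of Cmya5 (0.25, SE 0.19), Trim55 (0.24, SE 0.16) and Tmod1 (0.14, SE 0.19), with adjusted p by limma of 0.791, 0.76 and 0.878. Without control 1 these were 0.03 for Cmya5, 0.17 for Trim55 and -0.09 for Tmod1.

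Both comparisons above use the same ORX libraries, so a low or high ORX value moves them in opposite directions, and their values are only set side by side. For the 9 called genes kept in every fit that left out a library, log2 fold changes in ORX against control were negative. They were -0.77 for Pdlim5, -0.69 for Fhl3, -0.64 for Smpx, -0.63 for Lmod3, -0.51 for Myoz1, -0.41 for Ldb3, -0.38 for Fhl1, -0.37 for Myom2 and -0.13 for Myom1. Without control 1 they were -0.56, -0.58, -0.41, -0.49, -0.30, -0.31, -0.38, -0.40 and -0.27 in the same order. With all libraries none of these passed the test in ORX against control, and for Myom1 the sign rested on the scaling (0.00080 after quantile normalisation).

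In ORX+DHT against control, 0 of the 41 genes were called, where 0.0349% of 8595 genes tested were, 0.0116% higher and 0.0233% lower. DESeq2 and edgeR also called 0 of the 41, and at an unadjusted p under 0.05 there was 1 of the 41 (Fhl1) against 6.48% of all genes. The median log2 fold change of the 41 genes was -0.0089 and that of all genes -0.0051. The values of single genes lay between -0.48 and 0.46, on both sides of 0: 18 above and 23 below, against 49.3% and 50.7% of all genes. The split turned to 24 above and 17 below without control 1, with a median of 0.03 and a range of -0.21 to 0.45. The highest were those of Fhl1 (0.46, SE 0.20), Flnc (0.41, SE 0.23) and Nrap (0.34, SE 0.19), and the lowest those of Pdlim7 (-0.48, SE 0.23), Nexn (-0.43, SE 0.20) and Ankrd2 (-0.41, SE 0.35). By limma, adjusted p was 0.736 for the first 5 of these and 0.799 for Ankrd2. Apart from Fhl1 these extremes rested on control 1: without it Fhl1 was at 0.45, Flnc at 0.17, Nrap at 0.13, Pdlim7 at -0.16, Nexn at -0.19 and Ankrd2 at 0.03. Myom1 was higher in every ORX+DHT library than in any control, at 2757, 3646 and 3703 in control (0.32, SE 0.16, adjusted p 0.736 by limma), and was at 0.18 without control 1. Pdlim7, at 673, 366 and 324 in control and 293, 322 and 309 in ORX+DHT, was lower in every one. Across all genes 6.86% did not overlap upward and 7.12% downward. The 95% confidence intervals are wide, such as -0.48 to 0.51 for Acta1 (0.01, or 0.21 without control 1), so equal levels in these groups are not shown.

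Ratios between members of a family are unaffected by library scaling, and several of the 10 computed did not overlap between ORX and ORX+DHT. How often ratios of other gene pairs do so was not computed, so these have no background. With 3 libraries against 3, the exact two-sided permutation test cannot give a p below 0.1, and 30 ratio tests were made, so that none can pass a threshold of 0.05. The ratio of Actn3 to Actn2 was 5.28, 6.00 and 7.22 in ORX and 3.61, 4.37 and 4.81 in ORX+DHT, without overlap (0.692-fold, exact permutation p 0.1, adjusted 0.3). In control it was 5.04, 5.80 and 4.42, overlapping both. Trim55 to Trim54 was 0.458, 0.431 and 0.413 in ORX, 0.277, 0.288 and 0.281 in ORX+DHT and 0.205, 0.288 and 0.355 in control. The ORX values of that ratio lay above all others. Lmod2 to Lmod3 was 0.845, 0.754 and 0.920 in ORX, 0.566, 0.585 and 0.648 in ORX+DHT and 0.630, 0.442 and 0.717 in control, again highest in ORX. Myoz3 to Myoz1 (0.799-fold) and Tmod1 to Tmod4 (0.857-fold) were also lower in every ORX+DHT library than in any ORX library, each with the same exact p of 0.1 (adjusted 0.3). Of the exonic bases of Tmod1, 32.6% overlap exons on the opposite strand. Myom2 to Myom1 differed little between ORX+DHT and ORX (0.990-fold, exact permutation p 0.8, adjusted 1) as both genes rose, and Synpo2 to Synpo2l did not separate the groups either (exact permutation p 1). Against control, Myom2 to Myom1 was lower without overlap in ORX (0.849-fold) and in ORX+DHT (0.840-fold). Each had an exact permutation p of 0.1 (adjusted 0.3), with controls at 1.32, 1.13 and 0.985.

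**Figure D4:**
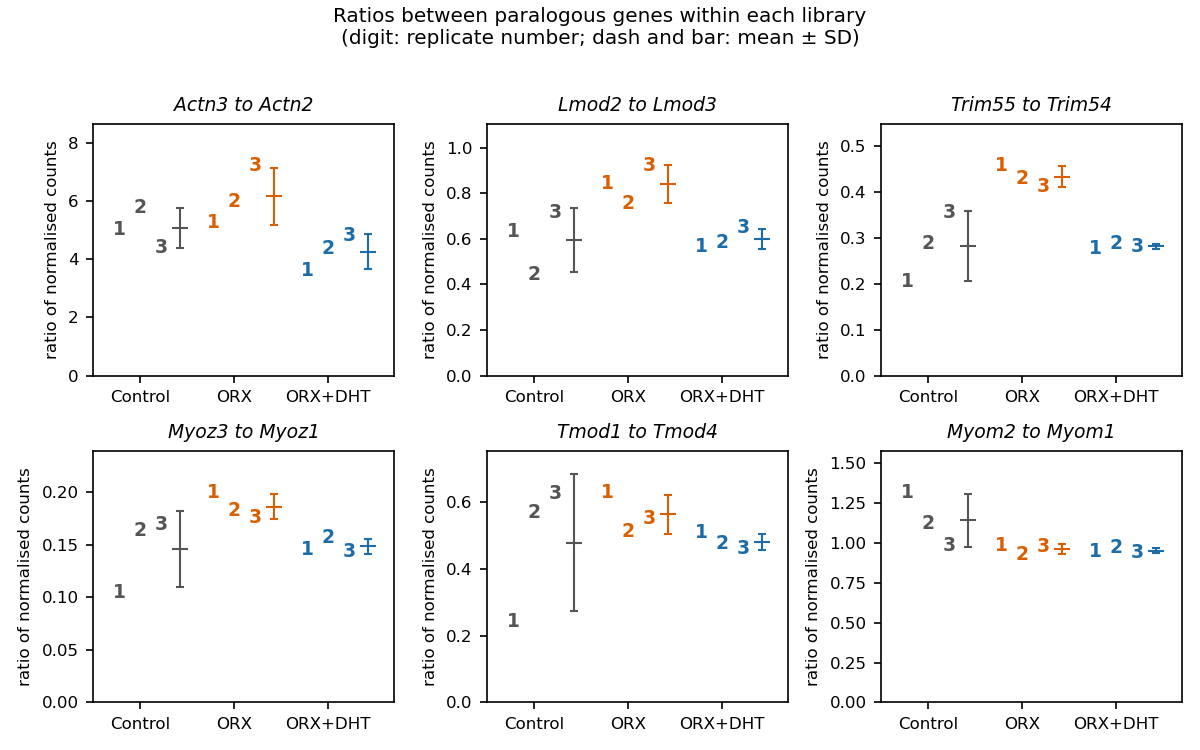
Ratio of normalised counts between genes of the same family (y axis), 1 panel per ratio, with 1 point per library in each group (n = 3). In ORX+DHT the ratios Actn3 to Actn2, Lmod2 to Lmod3 and Trim55 to Trim54 lie below all ORX values.

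Together the 41 genes took 9.50 to 9.90% of the normalised counts in ORX libraries, 11.1 to 11.2% in ORX+DHT and 10.3 to 10.7% in control. The mean was 9.65% ± 0.221 in ORX, 11.1% ± 0.0721 in ORX+DHT and 10.5% ± 0.248 in control (SD, n = 3), with no overlap between any pair of groups. Without control 1 the control mean was 10.3%. Acta1 alone made up 3.33% ± 0.0138 in ORX, 4.38% ± 0.284 in ORX+DHT and 4.15% ± 0.740 in control. Ttn took 1.13% ± 0.0888, 1.15% ± 0.0344 and 1.09% ± 0.243. Without these 2 genes the other 39 took 5.19% ± 0.123 in ORX, 5.61% ± 0.188 in ORX+DHT and 5.23% ± 0.257 in control. The share in ORX+DHT stayed above that in ORX in every library, and control overlapped ORX.

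**Figure D5:**
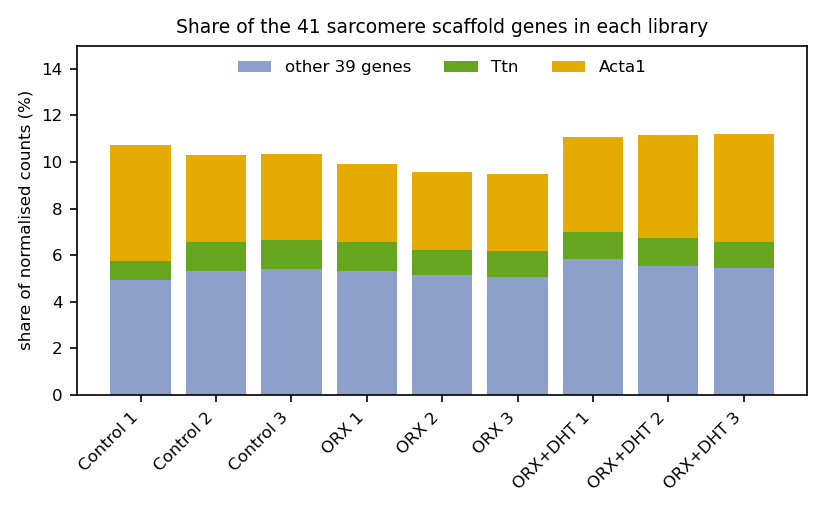
Share of normalised counts taken by the 41 genes in each of the 9 libraries (percent, y axis from 0), split into Acta1, Ttn and the other 39 genes. ORX bars end at 9.50 to 9.90%, and ORX+DHT bars at 11.1 to 11.2%.

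Sarcomere genes outside the 41 were counted for comparison in ORX+DHT against ORX, from lists that were also drawn up with earlier results known. Of 36 other scaffold genes tested, 2 were called higher, Cryab (0.34, a small heat shock protein that protects desmin and titin) and Vcl (0.98, vinculin). In the same list 2 were called lower, Klhl40 (-0.45, a stabiliser of leiomodin 3 and nebulin) and Obsl1 (-0.69, an obscurin relative of the M-band), with adjusted p by limma of 0.0384, 0.00105, 0.0343 and 0.00278. Their median was 0.09. Klhl40 fell where Lmod3 rose, at 159, 194 and 192 in ORX and 134, 142 and 123 in ORX+DHT. Of 17 motor and regulatory genes tested, 3 were called higher, Myh1 (0.47), Mybpc1 (0.49) and Tnni2 (0.39), and 2 lower, Myl3 (-0.75) and Mybph (-6.57), with limma adjusted p between 7.32e-09 and 0.0166. Of 14 regulators of sarcomere genes tested, 2 were called higher, Tead4 (1.29, adjusted p 0.0231 by limma) and Ppargc1a (0.60, adjusted p 0.013 by limma), and 0 lower. Mef2a, Mef2c and Mef2d were not called.

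Some markers of connective tissue were lower in the ORX+DHT libraries. In bulk tissue, fewer cells of a type and less RNA per cell cannot be told apart. The 6 fibroblast markers summed to between 2912 and 3902 normalised counts for ORX, 1731 and 2440 for ORX+DHT, and 1374 and 2759 for control, with 2 of 6 called lower in ORX+DHT than in ORX (Col1a1, -1.18, and Lum, -1.79, adjusted p 2.89e-06 by limma and 4.81e-06). The 6 tendon markers summed to 461 to 768, 308 to 387 and 331 to 442, with 1 of 4 tested called lower (Fmod, -1.28, adjusted p 0.00205 by limma). Of 6 myotendinous junction markers 1 was called higher (Itga7, 0.52, adjusted p 0.00669 by limma), and the list summed to 1007 to 1068 for ORX and 963 to 1096 for ORX+DHT. Log2 fold changes in that list were above 0 for 2 genes and below 0 for 4, with a median of -0.34. In both groups, 0 markers of these 3 lists were at 0 in every library. By limma 0 markers were called of the 5 endothelial, 3 macrophage, 4 smooth muscle and pericyte, 1 satellite cell, 2 Schwann cell and 2 denervation markers tested, and no adipocyte marker reached the filter on low values. Of the fibre type markers, 1 of 5 slow genes was called lower (Myl3) and 2 of 8 fast genes higher (Myh1 and Tnni2). Log2 fold changes were above 0 for 4 of the 8 fast genes and below 0 for 4, with a median of 0.05. They were below 0 for all 5 slow genes, with a median of -0.13. The part of these markers in the rises of the scaffold genes was not tested.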

How the data were processed

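Messenger RNA (polyA) libraries of 9 tibialis anterior samples were made with a strand-keeping kit, per the labels' protocols. Trim Galore 0.6.7, HISAT2 2.2.1, featureCounts 2.0.1, DESeq2 1.36.0 and the build GRCm38 are named in the submitters' processing notes. The strand setting and annotation are not given in the sources used here. As deposited by the authors, gene values are a signal, read counts divided by a factor per library, in 2 tables, 1 for control and ORX (14596 genes) and 1 for ORX and ORX+DHT (14675 genes). Control columns are called sham there and were taken as the control group. In every column 100% of values were whole multiples of 1 step (tolerance 1e-06), so reads were recovered by division.

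Both single-table comparisons were tested within their table. ORX+DHT against control was tested on the 14300 shared genes after rescaling all 9 libraries by median-of-ratios factors, the scale of the printed counts. Fits used limma 3.58.1 in R 4.3.3 on log2(value + 1) with a mean-variance trend, a scale that understates changes of low genes. Genes with a mean of at least 10 were tested, with Benjamini-Hochberg adjustment over all of them and a threshold of 0.05. All 41 genes passed the filter in all 3 comparisons. The fits were tested on simulated data. Alternatives included edgeR 4.0.16 and DESeq2 1.42.0 on recovered reads. The 95% confidence intervals are limma's and cover the spread between these libraries.

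Genes given in full were those called, the 3 highest and 3 lowest log2 fold changes per comparison, and family members as levels. The 41 genes, the gene lists and the motifs were chosen with earlier results of these data known. Exonic lengths and coordinates came from GENCODE M21 (GRCm38), promoters from RefSeq (GRCm38.p6). Exons of another gene overlap 14 of the 41 genes in part. Of the list symbols, Myopn, Mkl1 and Mkl2 had no match and were not analysed here.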

Additional observations from a re-analysis of the deposited data

How the results depend on the processing

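Of the 41 genes, the number called in ORX+DHT against ORX was 16, and 10 to 15 when 1 library was left out. It was 11 with DESeq2, 9 after quantile normalisation and 3 with all 9 libraries in 1 fit. Genes called overall (358) were 223 to 350, with 124 in the 9-library fit and 221 with DESeq2. In ORX against control 0 of the 41 were called, 0 to 2 with 1 library left out and 1 with DESeq2. Above 0 were 8 of the 41, 5 to 11 with 1 library left out and 15 after quantile normalisation. All genes called (5) were 1 to 51 with 1 library left out, 16 without a filter, 23 in the 9-library fit and 28 with DESeq2. In ORX+DHT against control all genes called (3) were 0 to 66, with 6 after quantile normalisation, 11 in the 9-library fit and 13 with DESeq2, and 0 of the 41 under every alternative. A length correction, chosen after seeing the data, called 24 and 20 genes in the comparisons with control. Without Acta1 and Ttn, the share of the others was 5.19% (ORX), 5.61% (ORX+DHT) and 5.23% (control). Values that changed sign were Des (0.071) and Myom1 (0.00080) in ORX against control after quantile normalisation, Tmod1 there (-0.085 to 0.27 with 1 library left out) and Ankrd2 in ORX+DHT against control (-0.74 to 0.025). The cause was not tested. Of the other values of single genes and ratios, 818 kept their direction and their status, called or not called. A call was lost in 57 and gained in 9. All 57 losses fell on the 16 scaffold genes that had a call, each tried under 18 alternative settings. Most of the 818 had no call to lose, as with the ratios, so that number does not measure how stable the calls were. Depth limits mainly Myom3, Capn3 and Csrp3.

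With the replicate number as a block, ORX+DHT against ORX gave 571 genes and 22 of the 41 (added were Myom3, Myoz2, Csrp3, Nrap and Tcap, higher, and Cmya5, lower). With the block and the length correction together, 593, 16 and 17 genes were called in ORX+DHT against ORX, ORX against control and ORX+DHT against control. The labels do not say whether the numbers pair the libraries, so the block is given only as an alternative. Same-numbered libraries' deviations correlated at 0.0611 to 0.151, -0.165 to 0.06 and -0.0921 to -0.00063 in these comparisons. In ORX+DHT against ORX, differently numbered libraries gave -0.0872 to 0.0248. The deviations of a gene sum to 0 within each group, so this range is not separate evidence from that of same-numbered libraries. A pairing there is neither shown nor excluded.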
